A study of Mus musculus with 24 samples.

Results

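Quadriceps, the large and mostly fast-fibred muscle of the front of the thigh, was compared between 6 mice fed a high fat diet and 6 mice fed a low fat diet for 3 days. The mice were chosen by their labels, as the arrays of the HF and LF groups sampled at day 3, and they are 12 of the 24 arrays of the series. Every mouse was male, of the strain that the labels write as C56BL/6J, 12 weeks old and hybridised to its own Affymetrix array. All had eaten a growth diet for 2 weeks and then, from 9 weeks of age, the low fat diet for 3 weeks as a run-in, so the low fat mice stayed on a familiar food while the high fat mice changed to a new one. Fat supplied 10% of the energy of the low fat diet and 45% of that of the high fat diet, and palm oil was the fat of both. The other 12 arrays come from mice treated in the same way for 28 days and aged 16 weeks, and are used here as another set of animals for the same contrast.

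The high fat mice carried numbers 1767 to 1772 and the low fat mice 2010 to 2019, so a difference between diets and a difference between these sets of animals cannot be told apart. Array medians of the whole series lay between 6.56 and 6.90 in deposited intensity. The first principal component of the day 3 arrays held 37.4% of the variance and parted the diets (low fat -27.3 to -3.2, high fat 1.9 to 19.8). The second held 17.8% and was led by high fat replicate 5, at 29.4. That array and low fat replicates 2 and 5 carried Ucp1, the uncoupling protein of brown fat, at log2 levels of 7.33, 7.25 and 6.43. Their means over 4 tested brown adipocyte markers were 7.63, 8.42 and 7.88. Low fat replicate 6 was also high in this mean, at 7.31, and the remaining day 3 mice lay at 5.38 to 6.04. Between the diets limma called 0 of the 4 markers at day 3, with 2 at an unadjusted p under 0.05. The change was above 0 for 2 of them and below 0 for 2. Ppargc1a, also a regulator of muscle mitochondria and given below, is 1 of the 4, so the mean does not measure brown fat alone. For low fat replicate 1, the labels name no removal of genomic DNA, which they name for the others. Of 9 defining genes of skeletal muscle 8 were not called, with a median log2 change of 0.01 over the 9, and the other was Mb, given below.

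Muscle burns a mixture of glucose and fatty acids that shifts with the supply of each. Slow, oxidative fibres rely on fatty acids, mitochondria and myoglobin and carry their own set of myosins, troponins and calcium pumps, while fast fibres carry another set. Fatty acids enter mitochondria as carnitine esters and are shortened by beta-oxidation, and they also act as signals through nuclear receptors of the PPAR family. Glucocorticoids are known to lower muscle mass, raising transcripts for amino acid release and for protein breakdown by ubiquitin ligases, the proteasome and autophagy. In whole muscle, fewer cells of a type and less RNA per cell cannot be told apart.

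The test was limma's moderated test on log2 of the deposited intensity, with Benjamini-Hochberg adjustment over 5793 genes, and a gene is said to have risen or fallen, or to be called, at an adjusted p under 0.05. Changes are log2 differences, high fat minus low fat, given with the standard error (SE) of the fit. Of the genes tested, 463 rose (7.99%) and 398 fell (6.87%), together 14.9%, and the median change of all genes was -0.01. Most steps were short, as 313 of the genes that rose and 281 of those that fell moved by less than 1.5-fold, and 53 and 39 moved by over 2-fold. In 203 genes (3.50%) every high fat mouse lay above every low fat mouse, and in 150 (2.59%) every high fat mouse lay below. These percentages are the background against which each list below is read. With the 12 day 3 arrays alone in the fit, 507 genes were called. Without the 3 arrays of highest Ucp1, which leaves 4 low fat and 5 high fat mice, the number was 461.

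**Figure D1:**
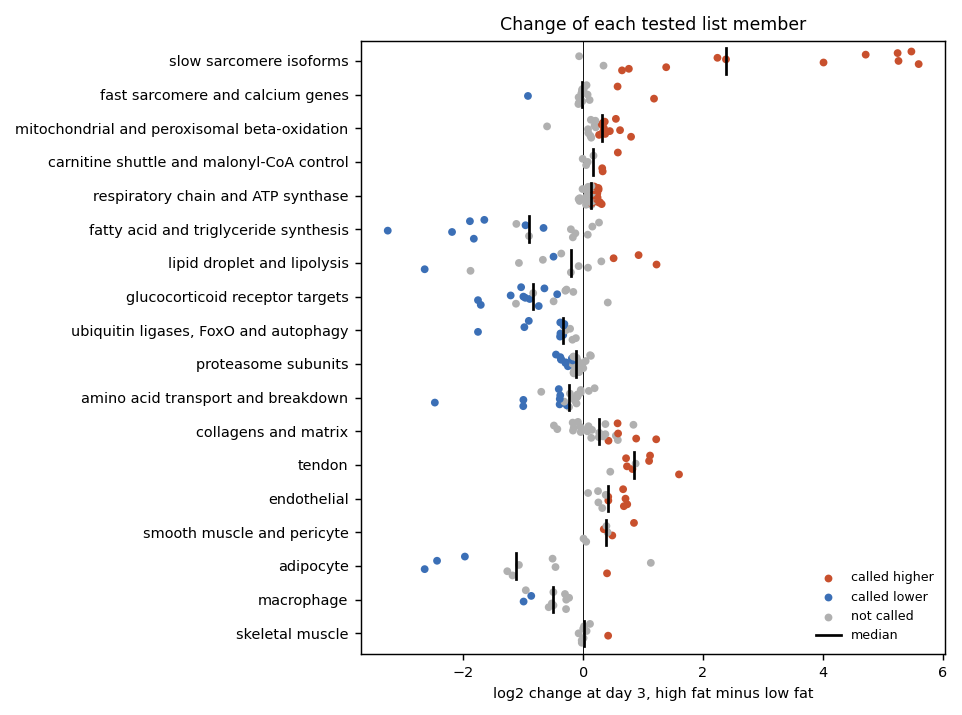
Log2 change at day 3 (high fat minus low fat, horizontal axis) of every tested member of 18 gene lists. Each point is 1 gene, orange where it rose, blue where it fell and grey where it was not called, and the black bar is the median of the list. The slow sarcomere list reaches 5.60 (Myh7) with a median of 2.38, and the fatty acid and triglyceride synthesis list reaches -3.26 (Fasn) with a median of -0.90.

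The largest changes were in the genes of the slow-twitch contractile apparatus. Of 13 tested slow sarcomere genes 11 rose, none fell, and 8 parted the diets completely, with a median change of 2.38. Myh7, the slow myosin heavy chain, had log2 levels of 2.23, 2.70 and 7.23 (lowest, median, highest of 6) on low fat and 7.96, 9.48 and 11.35 on high fat, a change of 5.60 ± 0.92 (SE, adjusted p = 0.000290). The low fat mice were not alike in this gene, since replicates 3 and 6 stood at 7.23 and 6.73 and the other 4 at 2.23 to 2.82. These low values lie in the range of dim probe sets, so the fitted fold of 48.6 depends on the background correction that the authors applied. Tnnt1, the slow troponin T that ties the troponin complex to tropomyosin, ran from 2.03 over 3.08 to 6.71 on low fat and from 7.64 over 9.09 to 11.15 on high fat, a change of 5.48 ± 0.79. Tnni1, the inhibitory subunit of slow troponin, had 2.07, 2.51 and 5.10 against 6.73, 8.23 and 10.45, a change of 5.25 ± 0.65 (adjusted p = 1.33e-05). The same replicates 3 and 6 were the highest low fat mice for both troponins, and the groups did not overlap. The low fat medians of Myh7, Tnnt1 and Tnni1 (2.70, 3.08 and 2.51) lie below the log2 of 4 that the filter on dim genes asks for. Among the day 3 arrays these genes passed mainly through high fat, so their changes and p-values carry that selection. The sizes of the troponin changes also depend on the background correction.

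Light chains, a troponin and structural genes of slow fibres rose as well. Myl3 and Myl2, the slow essential and regulatory myosin light chains, changed by 5.27 ± 0.95 and 4.01 ± 0.66, and Tnnc1, the calcium-binding troponin of slow and cardiac muscle, by 4.72 ± 0.70. Myom3 and Myoz2, proteins of the M-band and Z-disc, rose by 2.38 ± 0.32 and 2.24 ± 0.34. The mean of the 13 genes was 5.79 to 8.35 in the low fat mice and 9.08 to 10.95 in the high fat mice. Smpx and Mybpc1 were the members not called, at -0.07 and 0.34, although Mybpc1 was called in some other fits, among them those without low fat replicate 6 or high fat replicate 4. Csrp3, a Z-disc protein, rose by 1.39 ± 0.41 and lost its call without low fat replicate 5 or high fat replicates 1 or 6.

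Promoter sequence is shown for the 5 genes with the largest rises of the comparison, all of them slow sarcomere genes. The windows run from 250 bases before to 50 after a RefSeq start site (GRCm38.p6), 5′ to 3′ on the strand of the gene. RefSeq gives 2 windows for Myh7 and for Tnni1, of which the one with the start site farther upstream is printed. Capitals mark the MCAT box (CATTCC, or GGAATG on the other strand), which TEAD factors are known to bind, and the E box CAGCTG, its own reverse complement, which MyoD-family factors are known to bind.
Myh7, chr14:54994577-54994876, minus strand: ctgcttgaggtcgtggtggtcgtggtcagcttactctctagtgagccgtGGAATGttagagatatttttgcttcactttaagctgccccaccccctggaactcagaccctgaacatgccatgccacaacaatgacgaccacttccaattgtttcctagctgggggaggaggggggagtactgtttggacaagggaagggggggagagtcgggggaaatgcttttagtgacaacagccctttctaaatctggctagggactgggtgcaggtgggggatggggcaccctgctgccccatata
Tnnt1, chr7:4515926-4516225, minus strand: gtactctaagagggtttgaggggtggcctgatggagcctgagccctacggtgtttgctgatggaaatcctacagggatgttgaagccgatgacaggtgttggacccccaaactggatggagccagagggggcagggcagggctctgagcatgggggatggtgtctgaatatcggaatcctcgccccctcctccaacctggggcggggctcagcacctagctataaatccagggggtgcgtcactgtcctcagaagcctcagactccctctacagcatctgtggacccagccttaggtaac
Myl3, chr9:110763428-110763727, plus strand: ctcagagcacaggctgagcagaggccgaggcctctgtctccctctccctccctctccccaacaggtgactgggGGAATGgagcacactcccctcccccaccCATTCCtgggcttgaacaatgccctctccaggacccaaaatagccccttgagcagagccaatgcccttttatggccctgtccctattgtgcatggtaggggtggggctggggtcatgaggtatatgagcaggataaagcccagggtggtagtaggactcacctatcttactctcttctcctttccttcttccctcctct
Tnni1, chr1:135799171-135799470, plus strand: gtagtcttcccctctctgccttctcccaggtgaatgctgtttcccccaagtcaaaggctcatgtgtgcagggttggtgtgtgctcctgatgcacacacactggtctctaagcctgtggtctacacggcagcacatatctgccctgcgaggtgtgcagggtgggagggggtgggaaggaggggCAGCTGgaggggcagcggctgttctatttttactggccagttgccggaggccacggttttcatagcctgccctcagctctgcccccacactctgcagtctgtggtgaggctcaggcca
Tnnc1, chr14:31208062-31208361, plus strand: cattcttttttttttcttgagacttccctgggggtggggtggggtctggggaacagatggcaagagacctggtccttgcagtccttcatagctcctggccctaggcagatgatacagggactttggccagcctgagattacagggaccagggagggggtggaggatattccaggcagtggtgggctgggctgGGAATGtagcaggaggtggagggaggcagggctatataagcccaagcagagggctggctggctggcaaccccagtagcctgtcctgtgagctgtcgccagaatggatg
The Tnnt1 window and the other Myh7 window held neither motif. Counting every window of a gene, the MCAT box occurred in 3 of the 13 slow genes, all of them among the 5 shown, in 4 of 10 fast genes with a window and in 16.6% of all 27025 genes with one. The E box occurred in 4 of 13, 4 of 10 and 18.3%. These are matches of letters, and no binding was measured.

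**Figure D2:**
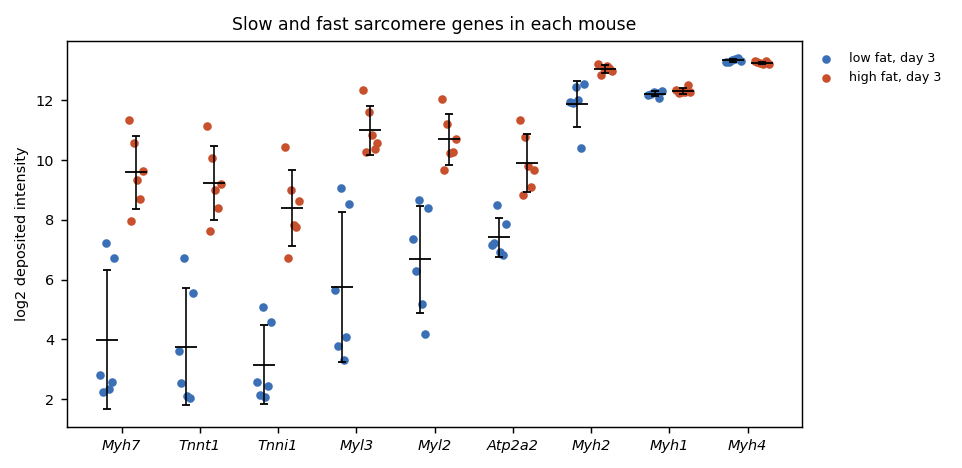
Log2 deposited intensity (vertical axis) of slow genes (Myh7, Tnnt1, Tnni1, Myl3, Myl2, Atp2a2) and of fast myosins (Myh2, Myh1, Myh4) in each mouse at day 3. Points are single mice, bars the mean ± SD of 6. For Myh7 the high fat mice lie at 7.96 to 11.35 and the low fat mice at 2.23 to 7.23, and Myh4 differs by -0.08. Levels of different genes are not comparable on an array.

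Fast fibre genes did not share a direction, and 20% of them were called against 14.9% of all genes tested. Of 15 tested, 2 rose and 1 fell, with a median of -0.02. Myh2, the myosin of fast oxidative IIa fibres, had 10.40, 11.98 and 12.55 on low fat and 12.84, 13.09 and 13.23 on high fat, a change of 1.18 ± 0.23 (adjusted p = 0.00155). The fast tropomyosin gene Tpm1 rose by 0.57 ± 0.11. Mylk2, the kinase of the fast regulatory light chain, fell by 0.92 ± 0.19, and its lowest value, 8.18, was in high fat replicate 5. Myh4 and Myh1, the IIb and IIx myosins, were not called, at -0.08 ± 0.04 and 0.11 ± 0.07.

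Of 7 tested genes of slow fibre calcium handling 2 rose and none fell, with a median of 0.02, and 2 more were too dim to test. Atp2a2, the calcium pump of slow and cardiac reticulum, had 6.81, 7.18 and 8.50 on low fat and 8.83, 9.72 and 11.34 on high fat, a change of 2.50 ± 0.37. Casq2, the matching calcium store, rose by 2.04 ± 0.28, and the other 5 tested members of that list were not called. Mb, myoglobin, rose by 0.42 ± 0.08 with no overlap (12.58 to 13.08 on low fat, 13.10 to 13.39 on high fat). Of the regulators of fibre type and myogenesis, 1 of 13 rose and 2 fell. Nfatc1, a calcineurin-driven factor of slow fibres, rose by 0.26 ± 0.08 and lost its call without low fat replicates 1 or 2 or high fat replicates 1, 4 or 6, while Tbx15, a factor of glycolytic fibres, and Mef2d fell by 0.43 ± 0.09 and 0.48 ± 0.13.

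Genes of fatty acid oxidation rose by small steps. Of 21 beta-oxidation genes 12 rose and none fell, with a median of 0.31, and 9 parted the diets completely. Acaa2, the thiolase that ends each turn of the cycle, had 8.48, 8.78 and 9.07 on low fat and 9.47, 9.57 and 9.76 on high fat, a change of 0.80 ± 0.08 (adjusted p = 1.76e-06). The groups did not overlap, and the spread within each diet was narrow. Ech1, an auxiliary isomerase for unsaturated chains, had 10.65, 10.74 and 10.83 against 11.12, 11.35 and 11.55, a change of 0.62 ± 0.07. Acadm and Acadvl, the medium and very long chain dehydrogenases, rose by 0.37 ± 0.06 and 0.33 ± 0.07, and Hadha, the alpha subunit of the trifunctional protein, by 0.36 ± 0.08. The beta subunit, Hadhb, was not called (0.20 ± 0.09), although it was without low fat replicate 2, and Ehhadh, a peroxisomal enzyme, stood at -0.60 without a call.

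Of 7 genes of the carnitine shuttle 3 rose. Slc25a20, the carrier that takes acylcarnitines across the inner membrane, had 8.40, 8.53 and 8.61 on low fat and 8.97, 9.08 and 9.30 on high fat, a change of 0.58 ± 0.06 (adjusted p = 5.88e-07). Cpt1b and Cpt1a, the muscle and liver forms of the enzyme that commits fatty acids to the mitochondrion, rose by 0.32 ± 0.08 and 0.33 ± 0.11. With the day 3 arrays alone in the fit they were not called (adjusted p = 0.0597 and 0.131), and Cpt1a lost its call when any 1 of 8 arrays was left out (low fat replicates 1, 3, 5 and 6, high fat replicates 1, 2, 3 and 5). Uptake genes did not move together, as Acsl6, an acyl-CoA synthetase, rose by 0.60 ± 0.09 while Acsl3, another, and Vldlr, a lipoprotein receptor, fell by 0.74 ± 0.17 and 0.42 ± 0.12. Lpl, the lipase that frees fatty acids at the capillary, was not called (0.19 ± 0.10). With the mean of the adipocyte markers as a covariate limma called it, at 0.34 (adjusted p = 0.00718).

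Ketone and acyl-CoA handling genes changed in both directions. Bdh1, the mitochondrial enzyme that interconverts the ketone bodies, had 5.87, 6.70 and 7.45 on low fat and 8.18, 8.73 and 9.53 on high fat, a change of 2.04 ± 0.23 (adjusted p = 3.28e-06). Oxct1, which acts on ketones in the next step, was not called (-0.03 ± 0.14). The thioesterases Acot7 and Acot13, which release free fatty acids from CoA, rose by 0.42 ± 0.08 and 0.23 ± 0.05, the latter not called with the day 3 arrays alone (adjusted p = 0.0539). Ucp3, a mitochondrial carrier that fatty acids are known to raise, fell by 0.78 ± 0.20, with 9.54 to 10.69 on low fat and 8.76 to 9.82 on high fat. Pdk4, the kinase that switches off pyruvate dehydrogenase and a known PPAR and glucocorticoid target, fell by 0.41 ± 0.11, and its groups did not overlap (12.08 to 12.57 against 11.56 to 11.98). Without the 3 arrays of highest Ucp1 none of Ucp3 (adjusted p = 0.150), Pdk4 (0.220) and Acot13 (0.0557) was called.

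Respiratory chain genes rose by smaller amounts. Of 61 genes 22 rose and none fell, with a median of 0.14. The ATP synthase subunits Atp5o and Atp5k rose by 0.28 ± 0.07 and 0.26 ± 0.06 and Cyc1, cytochrome c1, by 0.23 ± 0.05. This count depended on the arrays included. It was 14 without low fat replicate 5, 6 with the day 3 arrays alone and 8 without the 3 arrays of highest Ucp1. In the tricarboxylic acid cycle 1 of 13 genes rose (2 without low fat replicate 3), Idh2, the mitochondrial NADP-linked isocitrate dehydrogenase, from 7.72, 9.27 and 9.44 to 9.87, 10.01 and 10.53, a change of 1.13 ± 0.22. Cs, citrate synthase, was not called (0.12 ± 0.05).

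Among the regulators of mitochondrial genes, 2 of 12 rose. Esrrg, an orphan receptor of oxidative muscle, rose by 0.88 ± 0.16 and Sirt3, the mitochondrial deacetylase, by 0.39 ± 0.10. The coactivator gene Ppargc1b had 5.60, 6.50 and 6.77 on low fat and 6.99, 7.39 and 7.93 on high fat. Its groups did not overlap, yet its change of 1.03 ± 0.37 was not called over all arrays (adjusted p = 0.0649) and was called with the day 3 arrays alone (0.0117). Ppargc1a was not called (0.85 ± 0.35), although it was without high fat replicate 5, without the 3 arrays of highest Ucp1 and with array weights. Ppara was not called either, and its values ran from 3.01 to 5.73 and from 3.61 to 6.50.

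Of 11 tested genes of glycolysis and lactate 2 rose and 2 fell, with a median of 0.04. Ldhb, the heart-type lactate dehydrogenase, had 6.56, 8.72 and 8.90 on low fat and 9.25, 9.58 and 10.14 on high fat, a change of 1.35 ± 0.29, where the lowest value belonged to low fat replicate 5. Slc16a1, a lactate carrier of oxidative fibres, rose by 0.42 ± 0.08. Pfkfb3, which makes an activator of glycolysis, fell by 1.26 ± 0.30. Slc16a3, the carrier of glycolytic fibres, fell by 0.55 ± 0.17 and lost its call without low fat replicates 1, 2 or 5 or high fat replicates 1, 2, 5 or 6. Of 12 genes of glucose uptake and insulin signalling, Slc2a1, the basal glucose transporter, and Grb14, an adaptor that inhibits the insulin receptor, rose by 0.69 ± 0.12 and 0.88 ± 0.17, and Akt2, the kinase downstream of insulin, fell by 0.44 ± 0.06. Akt2 parted the diets completely, with 8.21, 8.34 and 8.47 on low fat and 7.78, 7.85 and 8.06 on high fat. Slc2a4, the insulin-responsive transporter, was not called (-0.19 ± 0.07).

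Genes that make fat fell with a wide spread between mice, and Fasn gave the largest fall of the comparison. Of 15 genes of fatty acid and triglyceride synthesis 7 fell and none rose, with a median of -0.90. Fasn, fatty acid synthase, had 6.88, 9.77 and 10.80 on low fat and 4.55, 5.32 and 10.17 on high fat, a change of -3.26 ± 0.75 (adjusted p = 0.00519). The overlap came from 2 mice, low fat replicate 1 at 6.88 and high fat replicate 5 at 10.17, while the other low fat mice lay at 9.25 to 10.80 and the other high fat mice at 4.55 to 7.50. Acly, which supplies cytosolic acetyl-CoA, changed by -1.83 ± 0.45 and Thrsp, a lipogenic regulator, by -1.65 ± 0.42. Lpin1, the phosphatidate phosphatase that also serves as a muscle coactivator, was the 1 member whose groups did not overlap, with 10.92 to 11.64 on low fat and 10.39 to 10.84 on high fat, a change of -0.66 ± 0.12.

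Adipocyte markers moved with these genes from mouse to mouse. Of 10 tested adipocyte markers, Cidec, Pck1 and Retn fell, by 2.65 ± 0.67, 2.44 ± 0.61 and 1.98 ± 0.63, and Car3, which muscle also expresses, rose by 0.40 ± 0.09. Adipoq, adiponectin, was not called (-1.18 ± 0.49, adjusted p = 0.108), although it was without low fat replicate 1 (0.0270), without high fat replicate 5 (0.0176) and with array weights (0.0465), and ran from 8.31 to 10.90 and from 7.49 to 10.97. Lep, another defining marker, did not pass the filter, with log2 levels of 1.53 to 2.18 on low fat and 1.73 to 3.66 on high fat. The mean of the 10 markers was 6.27 to 8.44 on low fat and 5.72 to 8.69 on high fat. Its lowest low fat value was that of replicate 1 and its highest high fat value that of replicate 5. Without low fat replicate 1, and likewise without high fat replicate 5, 7 of the 10 markers fell. With the day 3 arrays alone limma called 0 of them lower (4 at an unadjusted p under 0.05), with Pck1 at an adjusted p of 0.0599 and Retn at 0.122. Retn lost its call without low fat replicates 2, 4, 5 or 6 or high fat replicates 1, 2, 3 or 4.

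With the mean of the 10 adipocyte markers, the mean adipocyte level, as a covariate 4 of the 15 fat synthesis genes fell, 1 rose, and the change of Fasn was -1.74. The gene that rose was Dgat2, an acyltransferase of triglyceride synthesis, at 0.67 with the covariate (adjusted p = 0.0364) and 0.08 without it. The covariate is a measure of these same mice and holds Cidec and Pck1 itself. Without low fat replicate 5 the count was 4, without the 3 arrays of highest Ucp1 it was 6, and with the day 3 arrays alone it was 1. In that last fit Fasn, Acly, Thrsp and Cidec had adjusted p-values of 0.0501, 0.0555, 0.0603 and 0.0591.

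**Figure D3:**
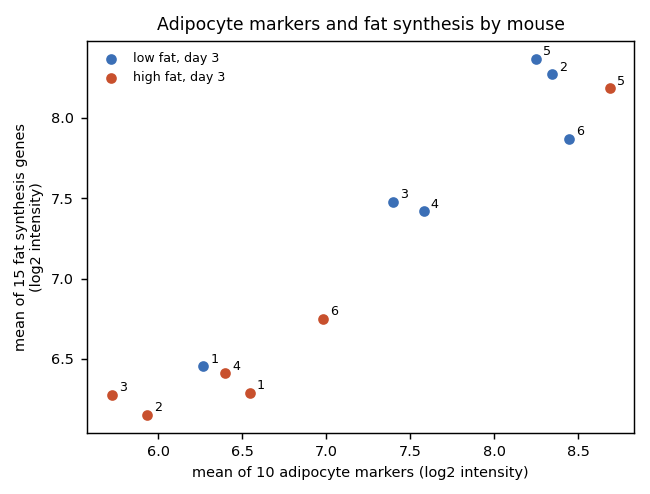
Mean log2 intensity of 10 adipocyte markers (horizontal axis) and of 15 genes of fatty acid and triglyceride synthesis (vertical axis) in each mouse at day 3, with the replicate number beside each point. Low fat replicate 1 (6.27, 6.45) lies among the high fat mice. High fat replicate 5 (8.69, 8.18) lies within the low fat range on the vertical axis and above every low fat mouse (highest 8.44) on the horizontal axis.

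Lipid droplet genes changed in both directions, 3 of 13 higher and 2 lower. G0s2, an inhibitor of the triglyceride lipase, had 5.02, 5.51 and 6.35 on low fat and 6.35, 6.69 and 7.41 on high fat, a change of 1.22 ± 0.29 (adjusted p = 0.00662). Plin5, the droplet protein of oxidative tissue, had 5.76, 6.15 and 6.96 against 6.96, 7.12 and 7.45, a change of 0.93 ± 0.15, and Plin3 rose by 0.51 ± 0.17, a call lost on leaving out any array but low fat replicate 4 and high fat replicates 3 and 5. Plin4 fell by 0.49 ± 0.12, Cidec fell as given, and Plin2 (-0.67 ± 0.24) and Pnpla2, the lipase itself (-0.37 ± 0.15), were not called. Without low fat replicate 1 the falls numbered 6, Plin2 and Pnpla2 among them, and without high fat replicate 5 they numbered 4. Plin2 was also called without low fat replicate 3 and without high fat replicate 5. Without the 3 arrays of highest Ucp1, G0s2 (adjusted p = 0.0524) and Plin4 (0.0974) were not called.

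Targets of the glucocorticoid receptor were lower on high fat as a group. Of 17 tested 10 fell and none rose, with a median of -0.83, and 6 parted the diets completely. Klf15, a transcription factor that drives amino acid breakdown, had 8.63, 8.75 and 9.55 on low fat and 7.22, 7.83 and 7.98 on high fat, a change of -1.21 ± 0.16 (adjusted p = 1.98e-05). Cebpd, a factor induced by glucocorticoids and inflammation, had 8.25, 8.65 and 10.08 against 6.33, 7.19 and 8.07, a change of -1.71 ± 0.31. Glul, glutamine synthetase, had 10.13, 10.47 and 11.29 against 9.46, 9.58 and 9.82, a change of -0.998 ± 0.165. For all 3 every high fat mouse was below every low fat mouse. The mean of the 17 genes was 8.29 to 8.82 in the low fat mice and 7.58 to 7.97 in the high fat mice, with no overlap.

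Other targets were less even. Fkbp5, a chaperone that restrains the receptor, fell by 0.89 ± 0.30, its groups overlapped (5.88 to 8.31 against 5.43 to 6.24), it was not called with the day 3 arrays alone (adjusted p = 0.137), and it lost its call on leaving out any array but low fat replicates 3, 4 and 6. Tsc22d3, an anti-inflammatory target, fell by 0.65 ± 0.16. Mt1, metallothionein, was not called, and its low fat values reached 10.43 and 9.37 in replicates 2 and 5 while the other low fat mice lay at 6.67 to 7.23. Nr3c1, the receptor itself, was not called (-0.16 ± 0.08). Without the 3 arrays of highest Ucp1, which include low fat replicates 2 and 5, the number of targets that fell was 5.

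Genes of protein breakdown fell as well. Of 13 genes of ubiquitin ligases, FoxO factors and autophagy 9 fell and none rose, with a median of -0.33. Fbxo32, the muscle ubiquitin ligase atrogin-1, had 9.56, 10.68 and 11.59 on low fat and 7.17, 9.28 and 9.46 on high fat, a change of -1.76 ± 0.36 (adjusted p = 0.00201). The lowest value was that of high fat replicate 5, and without it the change was -1.41 (adjusted p = 0.00282). Ulk1, the kinase that starts autophagy, fell by 0.91 ± 0.20, Sqstm1, the p62 cargo receptor, by 0.38 ± 0.09, Map1lc3b, the LC3 of the autophagosome membrane, by 0.31 ± 0.06, and the lysosomal proteases Ctsd and Ctsl by 0.39 ± 0.07 and 0.33 ± 0.07. Foxo1, whose product drives these ligases, was not called (-0.29 ± 0.22). Without the 3 arrays of highest Ucp1 the list held 5 falls, and Ulk1 was not among them (adjusted p = 0.0653).

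Of 30 proteasome subunits 9 fell and none rose, with a median of -0.11. Psmd2, Psmd3 and Psmd1, of the 19S cap, fell by 0.37 ± 0.07, 0.37 ± 0.08 and 0.30 ± 0.07, and the activator Psme4 by 0.45 ± 0.09, each with no overlap. The immunoproteasome activators Psme1 and Psme2 stood at 0.13 and 0.12 without a call. Of 22 genes of amino acid transport and breakdown 8 fell and none rose, 3 fell with the day 3 arrays alone and 5 with the mean adipocyte level as a covariate. Slc3a2, the heavy chain of the leucine exchanger, fell by 0.41 ± 0.09 and parted the diets completely. The largest fall of this list was that of Cdo1, which makes taurine precursors and is strong in fat cells, at -2.48 ± 0.67, with 4.35 in low fat replicate 1 and 7.72 in high fat replicate 5, and it was not called with the day 3 arrays alone (adjusted p = 0.0709).

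**Figure D4:**
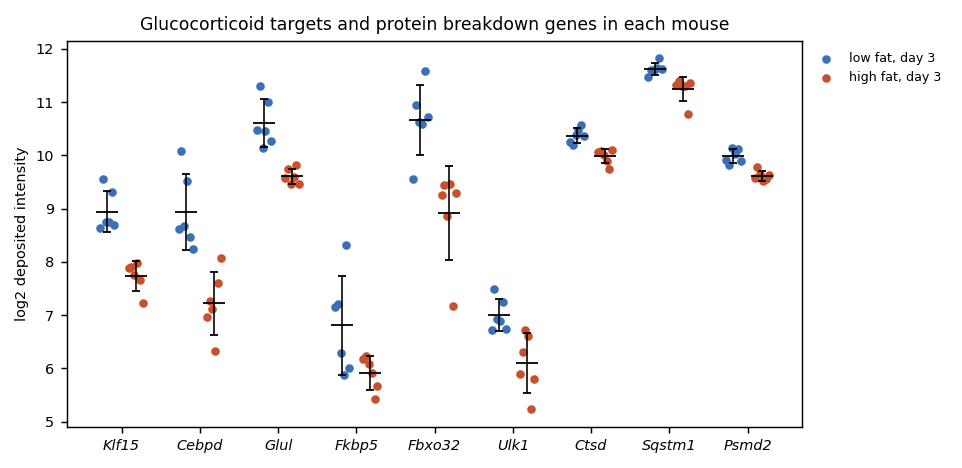
Log2 deposited intensity (vertical axis) of 5 glucocorticoid targets (Klf15, Cebpd, Glul, Fkbp5, Fbxo32) and 4 genes of protein breakdown (Ulk1, Ctsd, Sqstm1, Psmd2) in each mouse at day 3. Points are single mice, bars the mean ± SD of 6. The diets do not overlap for Klf15 (8.63 to 9.55 against 7.22 to 7.98) and do for Fkbp5 (5.88 to 8.31 against 5.43 to 6.24).

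Of the stress and the immediate early genes 5.26% and 14.3% were called, against 14.9% of all genes tested. Of 19 heat shock and unfolded protein response genes 1 rose, Ddit3, the CHOP factor, from 4.78, 5.004 and 5.34 to 5.63, 5.83 and 6.27, a change of 0.91 ± 0.15. Hspa1a, the inducible heat shock protein, was not called, with 9.60 in low fat replicate 5 and 5.40 to 6.82 in the other low fat mice. Ier3, an early survival gene, fell by 0.77 ± 0.20 and Ier2 rose by 0.51 ± 0.13, while Fos and Egr1 were not called. Neither Ier3 (adjusted p = 0.0724) nor Ier2 (0.0576) was called without the 3 arrays of highest Ucp1. Among 13 clock genes, Nfil3, Rora and Tef fell, by 1.29 ± 0.32, 0.48 ± 0.12 and 0.31 ± 0.10, and none of these was called without the 3 arrays of highest Ucp1. Tef also lost its call without low fat replicates 1, 4, 5 or 6 or high fat replicates 4 or 6. Arntl and Nr1d1, of the core clock, were not called, though Nr1d1 was with the day 3 arrays alone (adjusted p = 0.0313).

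Redox genes held both directions. Nnt, the mitochondrial transhydrogenase that makes NADPH and is known to be disrupted in the C57BL/6J substrain, had 6.07, 6.75 and 6.90 on low fat and 7.75, 7.93 and 8.47 on high fat, a change of 1.39 ± 0.16 (adjusted p = 2.90e-06). The groups lay well apart, and the labels give no Nnt genotype of the mice. Prdx2, a peroxiredoxin, rose by 0.29 ± 0.07. Gpx3, the secreted glutathione peroxidase, and Gclm, of glutathione synthesis, fell by 0.93 ± 0.12 and 1.07 ± 0.25, both without overlap.

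Genes of vessel and tendon were higher on high fat. Of 11 endothelial markers 6 rose and none fell, with a median of 0.42. Emcn, the endomucin of capillaries and veins, had 5.46, 5.88 and 6.19 on low fat and 6.22, 6.56 and 6.95 on high fat, a change of 0.74 ± 0.16, and Egfl7, a secreted vessel protein, rose by 0.68 ± 0.14. The count was 3 without low fat replicate 1 and 3 without high fat replicate 1. Of 7 smooth muscle and pericyte markers 3 rose, among them Tagln, transgelin, by 0.85 ± 0.16. Myl9, a light chain of smooth and non-muscle myosin, gave 1 of the smallest p-values of the comparison, with 7.11, 7.26 and 7.43 against 7.79, 8.20 and 8.24, a change of 0.87 ± 0.08 (adjusted p = 5.88e-07).

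Of 8 tendon markers 6 rose and none fell, with a median of 0.85. Tnmd, tenomodulin, had 6.89, 7.61 and 8.07 on low fat and 7.82, 8.79 and 9.07 on high fat, a change of 1.12 ± 0.22. Scx, the tendon transcription factor, had 3.29, 4.15 and 4.56 against 4.69, 5.05 and 5.64, a change of 1.10 ± 0.24 with no overlap, and Thbs4, a tendon thrombospondin, rose by 0.72 ± 0.10. Of 27 collagens and matrix genes 5 rose and none fell, with a median of 0.26. Col1a1 and Col1a2, the chains of type I collagen, rose by 1.22 ± 0.37 and 0.89 ± 0.25 but were not called with the day 3 arrays alone (adjusted p = 0.0725 and 0.0645). Col1a1 lost its call without low fat replicates 1 or 2 or high fat replicates 1, 3 or 4, and Col1a2 without low fat replicate 2. The count of the list ran from 2 (without low fat replicate 2) to 9 (without low fat replicate 5) and was 3 without low fat replicate 1, 3 without high fat replicates 1, 3 or 4 each, and 8 without low fat replicate 4.

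Of 11 macrophage markers 2 fell and none rose. Cd163, a scavenger receptor of resident macrophages, fell by 0.99 ± 0.19 and Fcgr3, an antibody receptor, by 0.87 ± 0.25, which lost its call without low fat replicate 4 or high fat replicate 4. Limma called 0 of 6 antigen presenting and 0 of 5 interferon genes, and 0 of either had an unadjusted p under 0.05. The antigen presenting mean was 9.51 in high fat replicate 5 and 8.01 to 8.53 in the other high fat mice, and without that mouse 2 of the 6 fell. No lymphocyte, neutrophil or Schwann cell marker passed the filter on dim genes. The part of these cell types in the other results was not tested.

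Hox genes, which keep a record of the position of a cell along body and limb, differed by diet. Of 33 Hox genes on the array 7 passed the filter, some only through the diet where they were high, so the counts describe those alone. Hoxd9 had 2.55, 3.32 and 3.93 on low fat and 5.82, 6.66 and 7.13 on high fat, a change of 3.29 ± 0.23 (adjusted p = 4.07e-09), and Hoxd10 and Hoxd8 rose by 2.33 ± 0.22 and 2.15 ± 0.22. The low fat levels of Hoxd10, 1.65 to 2.16, are those of dim probe sets. Neither Hoxd9 nor Hoxd10 reached the filter's log2 of 4 in any low fat mouse of day 3. Among the day 3 arrays they could pass only through high fat, so their changes and p-values carry that selection. Hoxc6, Hoxc9 and Hoxc10 fell by 0.77 ± 0.14, 0.58 ± 0.14 and 0.33 ± 0.11, the last of which lost its call on leaving out any array but low fat replicates 4 and 6 and high fat replicates 3 and 4. The low fat mice of highest Myh7, replicates 3 and 6, had Hoxd9 at 3.53 and 3.12, within the range of the other low fat mice. These values lie below the filter's log2 of 4, and whether Hox genes and slow fibre genes go together was not tested.

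The same contrast in the 12 mice of day 28 shares no array with that of day 3, although the diets went to separate number ranges there too. Both contrasts come from the same fit and share its spread per gene, so their calls are not independent tests. At day 28 limma called 310 genes higher (5.35%) and 416 lower (7.18%). Of the genes that rose at day 3, 131 rose at day 28, which is 28.3% of the day 3 rises and 42.3% of the day 28 rises. Of those that fell, 103 fell again, 25.9% and 24.8% of the lists. Another 6 genes were called in opposite directions and are named here after their values were seen. Capg, Fkbp7 and Pcolce went from higher to lower, and Fdft1, Rprd1b and Stat5b from lower to higher. Because these 6 were picked for opposite calls in the same fit, a called difference between days largely follows from that choice and adds no support. The difference was called for all 6 over all arrays, the largest for Fkbp7, a chaperone of the secretory pathway, at 0.87. It was also called in each of the 12 fits that left out 1 day 3 array. The day 3 call itself held in all these fits for Pcolce. It was lost for Capg without high fat replicate 5, for Fdft1 without low fat replicates 2 or 4 or high fat replicate 1, and for Stat5b without replicates 1 or 6 of either diet. For Fkbp7 it was lost without low fat replicates 3, 5 or 6 or high fat replicates 1, 2, 5 or 6, and for Rprd1b without low fat replicates 1, 2, 3 or 6 or high fat replicates 4 or 5.

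Some leading genes of day 3 were called at day 28 as well. Myh7 changed by 5.02 at day 28, Acaa2 by 0.73, Bdh1 by 1.51, Nnt by 1.45 and Hoxd9 by 3.32, all called, and none of these 5 effects was called different between days. Hoxd9 carries the selection by the filter given above, and other leading genes, given below, did differ between days. Of the 15 fat synthesis genes 13 fell at day 28, where Fasn was at -5.98, but limma called 0 members different between days (Fasn, adjusted p = 0.173), with 12 at an unadjusted p under 0.05. The adipocyte mean was 7.51 to 9.45 on low fat and 5.47 to 6.92 on high fat at day 28.

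A test of the difference itself called 80 genes (1.38%), of which 50 were also called at day 3. Akt2 was at -0.05 at day 28, a difference of -0.40 (adjusted p = 0.0286) that was not called without high fat replicate 1 (0.0515). Klf15 stood at -0.33 at day 28, a difference of -0.88 (adjusted p = 0.0457) that was called in 4 of the 12 fits leaving out 1 array, namely those without low fat replicates 1 or 4 or high fat replicates 2 or 4. Ier3 differed by -1.25 (adjusted p = 0.0352), a call lost without low fat replicates 3 or 6 or high fat replicate 5. Slc43a1, a transporter of large neutral amino acids named here after its value was seen, fell by 1.72 at day 3 and was at -0.08 at day 28, a difference called in all 12 of those fits. Glucocorticoid targets as a list held 4 falls at day 28 against 10 at day 3, with 1 member, Klf15, called different. Of the 30 proteasome subunits limma called 0 at day 28 (3 at an unadjusted p under 0.05) and 0 differences between days (7 at an unadjusted p under 0.05), so a difference between days was not shown for that list.

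Matrix genes supplied the opposite case. Sparc, a collagen-binding matrix protein, had 10.22, 10.47 and 11.03 on low fat and 10.91, 11.07 and 11.37 on high fat, a change of 0.57 ± 0.14, against -0.24 at day 28 (adjusted p = 0.0411 for the difference). That difference was called in 4 of the 12 fits leaving out 1 array, those without low fat replicates 4 or 5 or high fat replicates 2 or 5. Pcolce, an enhancer of collagen trimming, was at 0.52 and -0.34, a difference of 0.86 (adjusted p = 0.00873). The number of differences called depended strongly on the setting. It was 38 without low fat replicate 3, 39 without low fat replicate 6, 39 without high fat replicate 1, 167 without the 3 arrays of highest Ucp1, and 0 with the mean adipocyte level as a covariate (545 at an unadjusted p under 0.05). The 3 arrays of highest Ucp1 were all taken from day 3, and day 28 kept all its arrays. There the mean of 4 brown adipocyte markers was 7.12 to 8.88 on low fat and 5.60 to 5.99 on high fat. The count of 167 thus sets a reduced day 3 against a complete day 28.

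**Figure D5:**
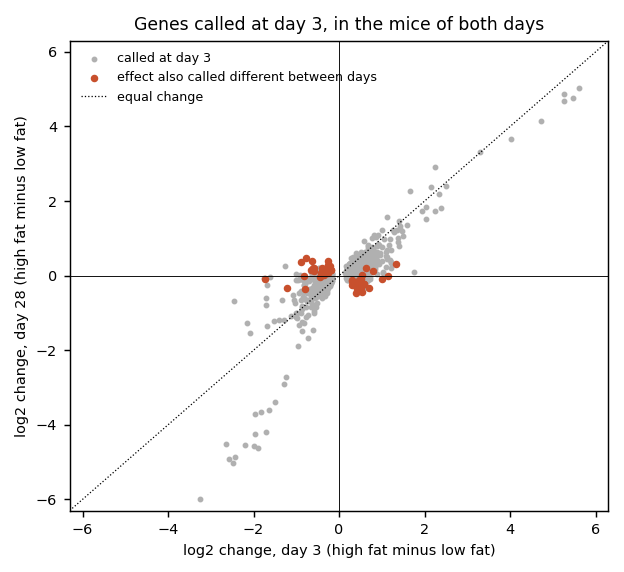
Log2 change at day 28 against log2 change at day 3 (high fat minus low fat) for the 861 genes called at day 3. Each point is 1 gene, orange for the 50 whose effect was also called different between days, and the dotted line marks equal change. The slow genes lie near that line at the upper right (Myh7 at 5.60 and 5.02), and the fat synthesis genes below it at the lower left (Fasn at -3.26 and -5.98).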

How the data were processed

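The RNA of each quadriceps was hybridised to 1 Affymetrix array per mouse. The deposited values are linear intensities, 1 per probe set, which the authors made with GCRMA per the submitters' processing notes; its version and the probe definition are not given in the sources used here. GCRMA models probe background and summarises probes to a probe set, so low levels and their folds depend on that model. The number of arrays limits the precision.

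Log2 of the deposited intensity was used with no further normalization. Of 16361 probe sets 64 were controls, 14771 had 1 gene symbol in the platform annotation, 589 had several and 937 were not listed. The probe set of highest mean stood for a gene, giving 14754 genes, and 5793 genes with log2 above 4 on at least 6 of the 24 arrays were tested. A linear model over all 24 arrays in 4 groups (residual df 20) was fitted with limma 3.58.1 in R 4.3.3, with moderated two-sided tests and Benjamini-Hochberg adjustment. In a test on simulated data for day 3 over 5793 genes, limma called 60 of 100 genes given a log2 change of 0.5, 94 of 100 given a change of 1, and 15 that were left unchanged.

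Genes named in the text were taken from those a rule gave: the 12 largest rises and falls called, the 5 smallest p-values in each direction, the key members of 48 gene lists whatever their value, and up to 3 further called members of a list in each direction. Capg, Ehhadh, Fkbp7, Mybpc1, Pcolce, Psme1, Psme2, Rprd1b, Slc43a1, Smpx and Stat5b lie outside the rule and were chosen after their values were seen. The comparison and the lists were chosen with earlier results of these data known. Promoter windows and start sites come from RefSeq (GRCm38.p6). All replicates are separate mice, and every array was assigned to a group.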

Additional observations from a re-analysis of the deposited data

Results flagged for a closer look

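In groups of 6 mice, 1 mouse stood far from the others for 25 values of 24 genes and for 2 list means named in the text. Chance flags about 1 in 20 groups. The text names 139 tested genes, each with a group in either diet, so a part of these flags is what chance would give. High fat replicate 5 gave 13 of these 27. It was high for Ucp1 (7.33, against 1.85 to 2.15 in the other high fat mice), Thrsp (9.38 against 6.45 to 7.26), Acly (8.69 against 5.95 to 6.50), Psme2 (5.55 against 3.58 to 4.12) and Myh1 (12.52 against 12.23 to 12.34). It was low for Fbxo32 (7.17 against 8.86 to 9.46), Mylk2 (8.18 against 9.38 to 9.71), Sqstm1 (10.78 against 11.30 to 11.40), Vldlr (10.24 against 10.74 to 10.91), Slc2a4 (9.82 against 10.07 to 10.21) and Nfatc1 (5.33 against 5.72 to 5.93). Its means over fatty acid and triglyceride synthesis (8.18) and antigen presenting genes (9.51) were also the highest.

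Low fat replicate 5 was high for Hspa1a (9.60), Vldlr (11.54), Arntl (6.54) and Capg (5.36) and low for Myh2 (10.40). Low fat replicate 1 was low for Cdo1 (4.35) and Pfkfb3 (8.52). Low fat replicate 2 was low for Hoxc6 (3.40) and high for Hoxd10 (2.16), and low fat replicate 4 was low for Prdx2 (6.09). High fat replicate 2 was high for Rora (9.04) and low for Slc43a1 (3.84), high fat replicate 4 was low for Myl9 (7.79) and high fat replicate 6 was low for Egfl7 (6.36).

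The diet effect at day 3 minus that at day 28 passed limma's test of the difference for 12 genes named in the text. It was above 0 for Fkbp7 (0.872), Pcolce (0.864), Sparc (0.812) and Capg (0.771). It was below 0 for Slc43a1 (-1.64), Ier3 (-1.25), Klf15 (-0.881), Stat5b (-0.643), Rprd1b (-0.541), Sqstm1 (-0.484), Fdft1 (-0.476) and Akt2 (-0.395). For the genes picked by opposite calls at day 3 and day 28, passing this test largely follows from that choice. Sqstm1 had an adjusted p of 0.0499, and its call was lost in 8 of the 12 fits that left out 1 day 3 array, those without low fat replicates 2, 3, 4, 5 or 6 or high fat replicates 1, 4 or 6.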

How the results depend on the processing

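Of the 139 genes tested and named in the text, 90 kept their direction and their side of the threshold under every alternative. Over 3179 alternative values of these genes 2979 kept both, 175 lost the call, 25 gained it and 0 reversed. Leaving out 1 day 3 array in turn gave 678 to 811 genes called (861 over all arrays), 352 to 454 higher, 310 to 384 lower, 38 to 113 differences between days (80) and 188 to 277 genes called in the same direction on both days (234). It gave 9 to 12 slow sarcomere genes higher, 12 to 14 beta-oxidation genes higher, 4 to 9 fat synthesis genes lower and 8 to 9 glucocorticoid targets lower. With the day 3 arrays alone the counts were 507 called, 278 higher and 229 lower, with 1 fat synthesis gene lower; 22 named genes lost their call (adjusted p 0.0501 to 0.137), those not yet given being Csrp3, Fdft1, Fkbp7, Hoxc10, Nfatc1, Rprd1b, Slc16a3, Tef and Vldlr. The number of differences between days was 6 with no filter on dim genes and 278 with array weights. With the mean adipocyte level as a covariate, limma called 0 such differences (545 at an unadjusted p under 0.05), 48 genes in the same direction on both days and 4 fat synthesis genes lower. Leaving out the 3 arrays of highest Ucp1, all of them from day 3, was chosen after seeing the data. It gave 461 called, 247 higher, 214 lower, 167 differences between days and 5 glucocorticoid targets lower. Without those arrays 24 named genes lost their call (adjusted p 0.0524 to 0.462), those not yet given being Capg, Csrp3, Fcgr3, Fdft1, Fkbp5, Fkbp7, Hoxc10, Mef2d, Plin3, Sirt3, Slc16a3, Tsc22d3 and Vldlr. The causes of these movements were not tested. Some of the fits held fewer arrays. The fit over all arrays also uses 1 spread per gene for all 4 groups, and the groups were not equally spread. The SD of the fat synthesis mean was 0.70 on low fat and 0.76 on high fat at day 3. At day 28 it was 0.46 and 0.13. Quantile normalization, an offset of 16, a stricter filter at log2 over 6, a trended robust fit and the mean of probe sets left all these counts within 1.5 times. Same-numbered mice of the diets at day 3 had deviation correlations of 0.165, -0.051, 0.237, 0.089, 0.058 and 0.197, and 1 of 6 numbers matched best with itself, so the numbers were not taken to pair the mice; a fit with the replicate number as a block called 775 genes, 688 of them among the 861. An alternative leaving out arrays of high beta-actin ratio was not run, since no array passed its limit.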
